A study of Mus musculus with 8 samples.

Results

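The cells described here are the blood stem cell candidates of the newborn mouse liver, set against those of newborn bone marrow and spleen. Their RNA was counted in 1 library per tissue, each made from 7 merged samples of wild-type mice at postnatal day 2 (P2), in 1 batch per the labels, which do not say whether the tissues came from the same mice. Cells had been enriched for Kit on magnetic beads and sorted as Epcr+Lin-Sca-1+Kit+, a surface profile used to enrich haematopoietic stem cells. The series also has an E19 wild-type library, and 2 tubes of pooled P2 marrow and spleen cells from 2 Tppp3CreER LSLTdTomato pups given tamoxifen at P0, each tube joining the few tdTomato-positive cells of 1 pup with tdTomato-negative cells of the other. These come from other batches and are used below only as further values. The E19 library is labelled bone marrow in its title and fetal liver elsewhere, so its tissue is not settled here.

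Within each library a barcode was kept when it held at least 1000 genes, at least 2000 UMIs (unique molecular identifiers, each marking 1 captured RNA molecule) and at most 10% mitochondrial UMIs. A kept cell was then called stem-gated when it held at least 1 UMI of Mecom and of Hlf, fewer UMIs of Mpo than of Mecom, and none of Cd79a, Elane and Mcpt8. This gave 163 stem-gated cells among 5634 kept liver cells, 1443 among 6550 in bone marrow and 1522 among 9043 in spleen, out of 15574 stem-gated cells among 37147 kept cells in the 6 libraries of the series. The members were thus chosen by the measured levels of 6 genes, whose values are given only as a description.

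Haematopoietic stem cells are born before birth, expand in the fetal liver, and around birth seed the bone marrow and the spleen, while blood formation in the liver comes to an end. Mecom encodes a zinc finger transcription factor needed for stem cell maintenance, and Hlf encodes a bZIP factor largely restricted to stem and early multipotent cells. The 4 genes used to exclude cells mark granulocyte progenitors (Mpo, Elane), B lineage cells (Cd79a) and basophils (Mcpt8). With 1 library per tissue, a difference between tissues cannot be told apart from a difference between libraries, no p-value is given, and all intervals are exact 95% intervals that cover counting error only. The UMIs of a gene are often held by few cells, and the intervals take no account of this.

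The gate caught a smaller share of cells in the liver library. After every cell of at least 5000 UMIs was thinned at random to 5000 UMIs, 142 of 3967 liver cells passed (3.58%, interval 3.02 to 4.21%), against 829 of 5007 in bone marrow (16.6%, 15.5 to 17.6%) and 970 of 6155 in spleen (15.8%, 14.9 to 16.7%). The thinning left out 1667, 1543 and 2888 shallower cells, and the shares without it were 2.89%, 22.0% and 16.8%. These are shares of sorted cells and say nothing of how many stem cells a tissue holds. In cells of the B lineage (Cd79a at 3 UMIs or more), both gate genes Mecom and Hlf were present in 4 of 1375 liver cells (0.291%), 55 of 883 bone marrow cells (6.23%) and 60 of 1544 spleen cells (3.89%), at median depths of 5149, 5994 and 3889 UMIs.

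By Mecom and Hlf, liver members lay further inside the gate. The cells here were not matched in depth, with median UMIs of 8148 in liver, 6185 in bone marrow and 6613.5 in spleen. Liver members had medians of 9 Mecom UMIs and 4 Hlf UMIs, against 5 and 3 in both other tissues. Just 1 Mecom UMI was held by 3.07% of them, against 9.29% in bone marrow and 10.3% in spleen. An Mpo UMI was held by 26.4% of liver members, 20.5% in bone marrow and 16.0% in spleen, with highest counts of 6, 20 and 7. The gate allows more Mpo in a cell with more Mecom, so these shares do not give nearness to its edge. Just outside, 34 liver, 311 bone marrow and 315 spleen cells failed only for want of an Hlf UMI, and 19, 209 and 165 failed only on Mpo. These stand beside 163, 1443 and 1522 members. Transcripts of the sorted surface proteins were present in liver members: Kit, the stem cell factor receptor, in 79.1% of cells, Ly6a (Sca-1) in 42.9% and Procr (Epcr) in 18.4%. No barcode of a liver member recurred among the stem-gated cells of the other tissues, and bone marrow and spleen members shared 1.

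The 3 libraries held 64757553 to 86569596 UMIs over 6867 to 10522 barcodes. Stem-gated cells were deeper in liver (median 8148 UMIs) than in bone marrow (6185) and spleen (6613.5). Each liver member was therefore matched to the 3 stem-gated cells of each other tissue nearest in total UMIs. The matched sets held 163, 489 and 489 cells with medians of 8148, 8158 and 8140 UMIs, and 1524549, 4457105 and 4530479 UMIs in all. Levels are given as CPM, the UMIs of a gene per 1e+06 UMIs of these summed cells, and a gene was past the fold at a 2-fold or larger ratio with a mean of at least 20 CPM over the libraries compared.

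At this depth 67 of 7229 genes were at least 2-fold higher in liver than in bone marrow (0.927%) and 12 at least 2-fold lower (0.166%). Against spleen, 87 of 7158 were higher (1.22%) and 19 lower (0.265%). Bone marrow and spleen differed by as much in 3 genes one way (0.0428% of 7005) and 29 the other (0.414%). Over 7142 genes, 32 were at least 2-fold higher in liver than in both other tissues (0.448%) and 6 at least 2-fold lower than in both (0.084%). The median log2 ratio of all genes was 0.05 against bone marrow and 0.13 against spleen, and 3573 genes were higher in liver than in both tissues while 2194 were lower than in both. Genes of liver were thus shifted slightly upward against spleen, and centring each ratio on its median left 20 of the 32 genes past the fold.

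The counts depended on the matching. Over all stem-gated cells, with no matching in depth, 22 genes were at least 2-fold higher than in bone marrow, 39 than in spleen and 11 than in both, of which 8 were among the 32. In bone marrow and spleen, deeper stem-gated cells were more often in cycle, as set out with the cell cycle genes, so the matched sets also differ from all stem-gated cells in that respect.

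**Figure D1:**
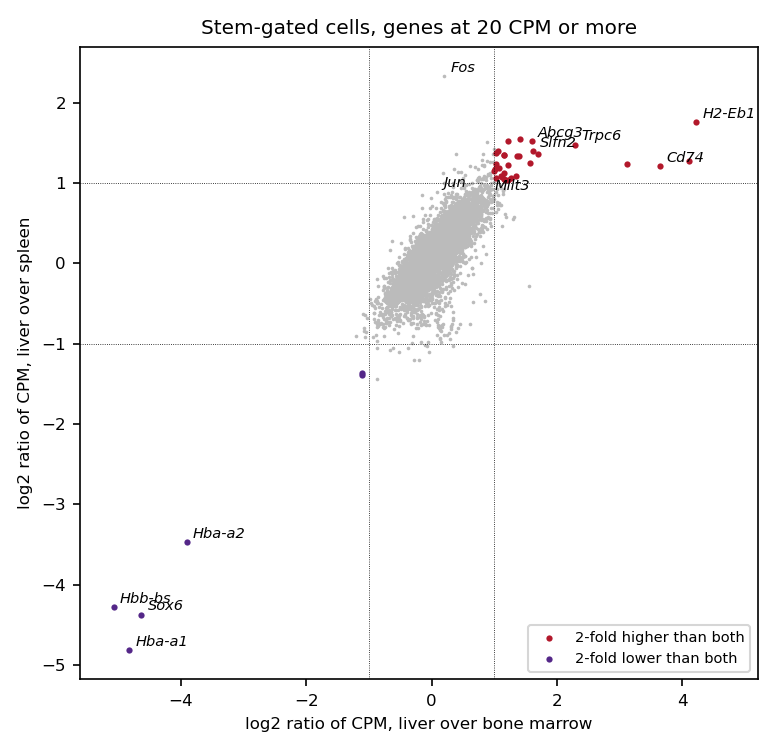
Log2 ratios of CPM for liver over bone marrow (horizontal) and liver over spleen (vertical), 1 point per gene at 20 CPM or more in stem-gated cells of matched depth. The 32 genes in red lie past 2-fold above both tissues and the 6 in purple past 2-fold below both, with the haemoglobin genes and Sox6 far apart from the rest. Gzma, at 0 in bone marrow, has no finite ratio and is not drawn.

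Against bone marrow, the largest ratios belonged to genes held by a handful of cells. Genes of MHC class II, the complex that presents peptides to helper T cells, stood at 199 (interval 178 to 223) CPM for Cd74, the invariant chain, in liver, against 15.9 (12.4 to 20.1) in bone marrow and 85.9 (77.5 to 94.8) in spleen. H2-Eb1, H2-Aa and H2-Ab1, which encode chains of the class II molecules, were at 87.9, 104 and 123 CPM in liver, 4.71, 6.06 and 14.1 in bone marrow, and 26.0, 43.3 and 52.1 in spleen. Of the 784 liver UMIs of these 4 genes, 743 (94.8%) lay in 4 of the 163 cells, with 275, 231, 177 and 60 UMIs each, and 128 liver members had none. Bone marrow had 1 such cell of 10 or more UMIs (0.204% of 489) and spleen 8 (1.64%), against 2.45% in liver with an interval of 0.673 to 6.16%. In the remaining cells the 4 genes together came to 27.9 (20.02 to 37.9) CPM in liver, 11.9 (8.93 to 15.6) in bone marrow and 22.9 (18.6 to 27.8) in spleen.

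These 4 liver cells also held 5, 12, 4 and 21 UMIs of Mecom and 5, 6, 15 and 2 of Hlf. They carried 5, 8, 4 and 1 UMIs of Ciita, the class II transactivator. Xcr1, a chemokine receptor of cross-presenting dendritic cells, had 5, 4, 3 and 0 UMIs in them, and Clec9a, a receptor of the same cells, 8, 9, 0 and 1. Of B lineage genes, Cd79b had 1, 0, 1 and 0 UMIs in them, Ighm 0, 1, 0 and 1, and Ebf1 1 UMI in 1 cell, and the dendritic and myeloid integrin gene Itgax had 1 UMI in 1 cell. The 10 dendritic cell markers summed to 353, 299 and 284 CPM over the 3 tissues, with Cd209a and Siglech at 0 in liver, and the 15 B cell markers (Cd74 among them) to 400, 213 and 291 CPM, with Iglc2 at 0 in liver. With cells of 10 or more UMIs of class II genes, Gzma or Pf4 left out, the B cell markers came to 209, 209 and 207 CPM. Scrublet, a doublet caller, placed 11 liver, 64 bone marrow and 91 spleen members among its highest scores. With cells of high score removed, the log2 ratio against spleen was -0.16 for Cd74 and -0.02 for H2-Eb1, compared with 1.22 and 1.75 with all cells. The summed ratios of the B cell markers were then 0.883 to bone marrow and 0.822 to spleen, compared with 1.88 and 1.38.

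Class II genes share promoter elements that bind a common set of factors, among them a Y box read by NF-Y. RefSeq promoter windows (GRCm38.p6, 250 bases before to 50 after the start) were at hand for 2 of the 4 genes. They are shown because these genes were high together in the same cells, as the 120 bases before each start, 5′ to 3′ on the gene's strand, with the Y box letters CTGATTGG in capitals:
H2-Aa, minus strand, chr17:34287824-34287943: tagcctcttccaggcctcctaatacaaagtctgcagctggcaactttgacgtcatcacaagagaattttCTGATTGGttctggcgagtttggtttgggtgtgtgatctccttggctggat
H2-Eb1, plus strand, chr17:34305747-34305866: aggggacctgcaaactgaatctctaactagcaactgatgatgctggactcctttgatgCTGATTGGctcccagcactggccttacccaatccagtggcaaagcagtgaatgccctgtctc
The letters begin 51 bases before the H2-Aa start and 62 before that of H2-Eb1. Searched on both strands, they occur in 1346 of 32851 promoter windows of the same length (4.1%). The match is a description of the sequence, and no binding was measured.

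Further genes past the fold were likewise concentrated. Gzma, encoding the cytotoxic granule protease granzyme A, had 92 UMIs in liver (60.3 CPM), of which 75 and 10 lay in 2 cells. It had none in bone marrow. Its liver level was 89.7 times that of 3 counts over the bone marrow set, the exact lower limit of the ratio itself was 71.5, and the gene stood at 5.52 CPM in spleen. Ccl5, a chemokine of T and NK cells, had 33, 21 and 7 of its 68 liver UMIs in 3 cells. Of the 32 genes, 6 had at least 50% of their liver UMIs in 4 cells.

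**Figure D2:**
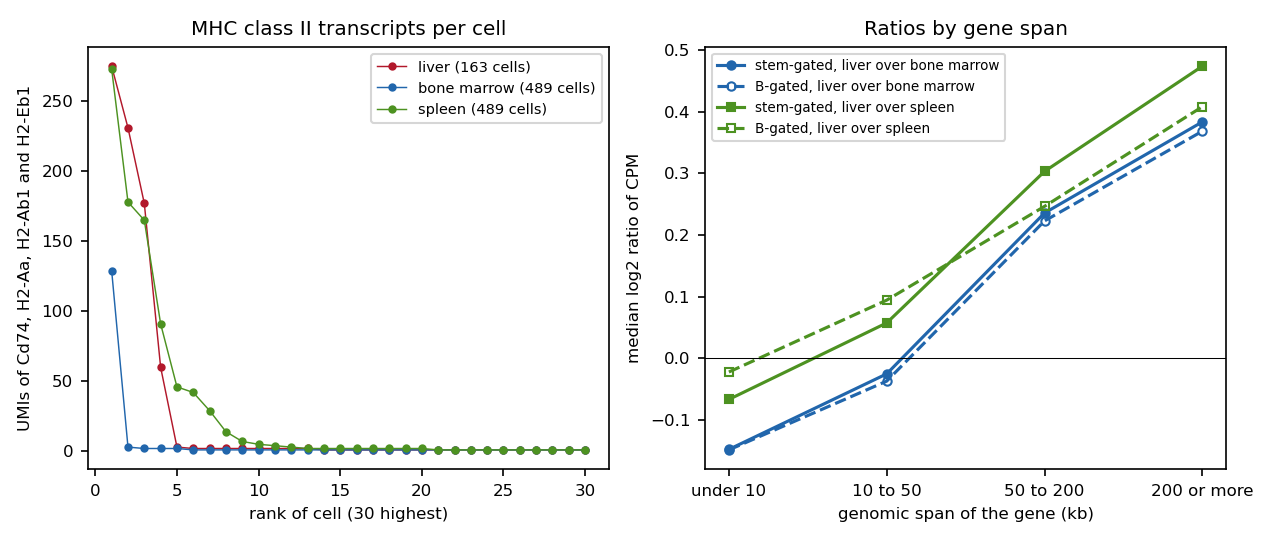
Left, UMIs of Cd74, H2-Aa, H2-Ab1 and H2-Eb1 in the 30 highest stem-gated cells of each matched set, where 4 liver cells of 60 to 275 UMIs and 8 spleen cells stand above the rest of their sets. Right, median log2 ratios of CPM by the genomic span of the gene in stem-gated cells (filled) and B-gated cells (open), which climb with span by about the same amount in both.

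Other genes past the fold were spread over many liver cells. Trpc6, a calcium-permeable cation channel on chromosome 9 (8544142 to 8680741, plus strand), had 80.0 (66.5 to 95.5) CPM in liver, 16.4 (12.8 to 20.6) in bone marrow and 28.7 (24.0 to 34.1) in spleen. It was seen in 31.3% of liver members, 10.2% in bone marrow and 17.0% in spleen, and no liver cell held more than 8 UMIs. The liver level was 4.89-fold (3.63 to 6.62) that of bone marrow and 2.79-fold (2.16 to 3.598) that of spleen, and the 3 level intervals did not overlap. Without depth matching the log2 ratios of Trpc6 were 1.06 and 0.91, compared with 2.29 and 1.48. Abcg3, an ABC transporter gene of rodents, was at 58.4 (46.9 to 71.8) CPM in liver, 19.3 (15.4 to 23.8) in bone marrow and 20.3 (16.4 to 24.9) in spleen, with a UMI in 33.7%, 14.5% and 14.9% of cells. Slfn2, a Schlafen gene known for keeping T cells and monocytes quiescent, stood at 52.5, 17.1 and 19.9 CPM. Without depth matching Abcg3 had a log2 ratio of 1.00 against both tissues. For both genes the liver interval lay above those of the other tissues, which overlapped each other.

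Plcl1, a phospholipase C-like protein without catalytic activity, was at 133 (115 to 153) CPM in liver, 41.1 (35.3 to 47.5) in bone marrow and 51.9 (45.5 to 58.9) in spleen. Ahnak, a giant scaffold protein at the plasma membrane, was at 55.8 (44.5 to 68.9), 21.8 (17.6 to 26.5) and 22.1 (18.0 to 26.8) CPM. Rora, a nuclear receptor of innate lymphoid and other cells, was at 70.8 (58.1 to 85.5), 30.5 (25.6 to 36.1) and 24.7 (20.4 to 29.7). The scaffold Frmd4b was at 51.2, 19.3 and 17.4 CPM, the mitochondrial enzyme gene Sugct at 57.1, 21.8 and 22.5, and the vesicle priming gene Cadps2 at 38.0, 16.4 and 16.3. In each of these 6 genes the liver interval lay above both others, as the choice by ratio makes likely, so their intervals describe the counts and test nothing. Without depth matching only Frmd4b of these 6, at log2 ratios of 1.21 and 1.30, stayed past 2-fold. Plcl1 was then at 0.87 and 0.97, Rora at 0.66 and 0.65, and Ahnak at 0.80 and 0.97. Sugct was at 0.88 and 0.88, and Cadps2 at 0.86 and 0.83. Matched on cell cycle share, Ahnak was at 0.96 and 0.83.

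**Figure D3:**
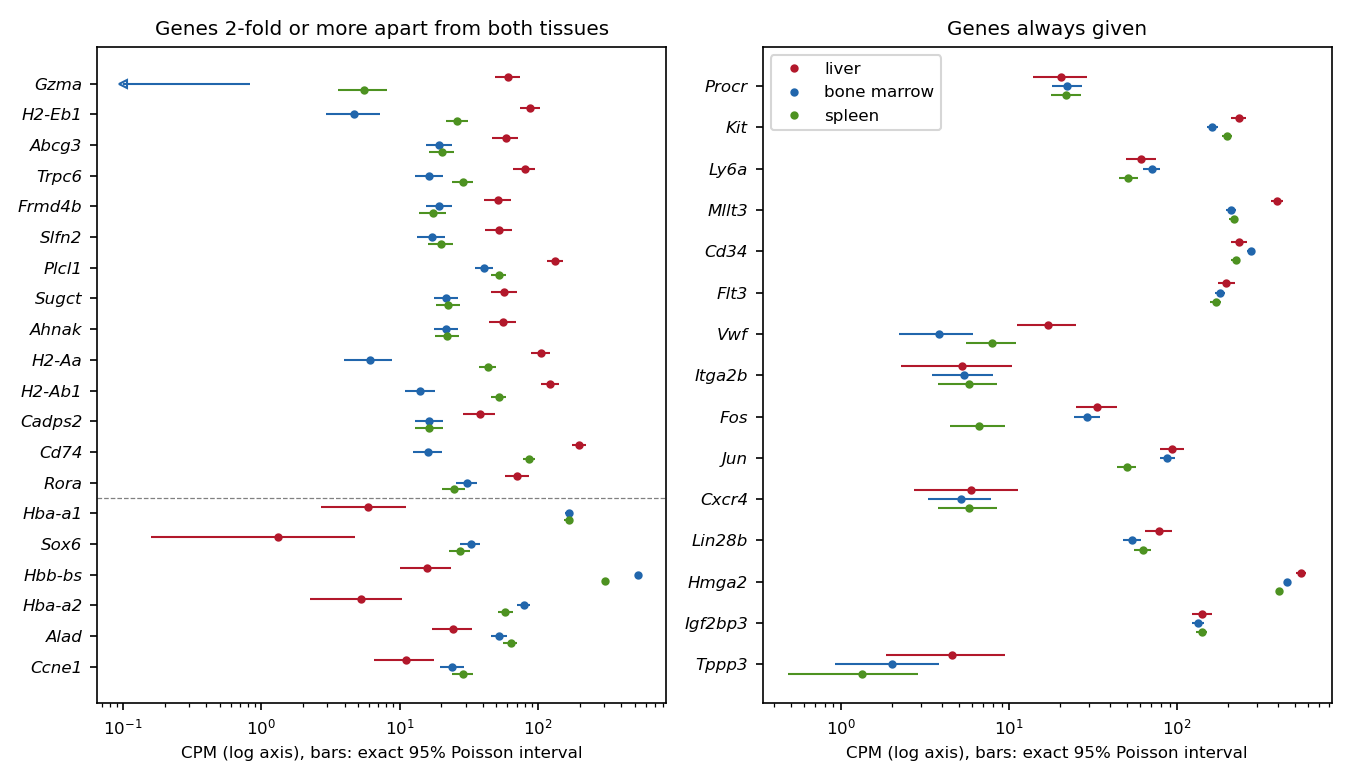
CPM of named genes on a log axis in the depth-matched stem-gated cells of liver (red), bone marrow (blue) and spleen (green), with exact Poisson intervals as bars and an open triangle at the left edge for a gene at 0. Above the dashed line liver is at least 2-fold higher than both tissues and below it at least 2-fold lower. The right panel gives genes shown whatever their ratio, among which the intervals of Mllt3, Vwf and Hmga2 lie above both others in liver and that of Fos lies below both others in spleen.

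Lower levels in liver were led by adult-type haemoglobin genes and by Sox6, a transcription factor of red cell maturation and globin switching. Hbb-bs was at 15.7 (10.1 to 23.4) CPM in liver, 530 (509 to 552) in bone marrow and 307 (291 to 323) in spleen, which is 33.7-fold (22.6 to 52.6) and 19.5-fold (13.0 to 30.5) lower. Hba-a1 was at 5.90, 167 and 166 CPM, and Hba-a2 at 5.25, 78.8 and 58.1. These UMIs, too, lay in few cells, now of the other tissues. Of 3459 bone marrow UMIs of the 3 genes, 3310 (95.7%) were in 15 cells of 10 or more, up to 814 in 1 cell, and of 2406 in spleen, 2096 (87.1%) were in 21 cells. No liver member reached 10. For 0 of 163 cells, 3 cells would be 1.84% and the exact upper limit is 2.24%, against 3.07% (1.73 to 5.01%) in bone marrow and 4.29% (2.68 to 6.49%) in spleen.

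In the cells under 10 UMIs the 3 haemoglobin genes still came to 26.9 (19.3 to 36.5) CPM in liver, 34.8 (29.5 to 40.9) in bone marrow and 74.1 (66.0 to 82.8) in spleen. B-gated cells of the same libraries, which should not express them, showed Hbb-bs at 16.7 CPM in liver, 586 in bone marrow and 254 in spleen, so the order of tissues was the same outside the stem gate. Among stem-gated cells with no mitotic UMI the log2 ratio of Hbb-bs against bone marrow was -0.91, compared with -5.07. Sox6 had 2 UMIs in liver (1.31 CPM) against 32.5 and 27.1 CPM, and 104 of its 145 bone marrow UMIs lay in 7 cells. The haem synthesis gene Alad was at 24.3 (17.1 to 33.5), 52.5 (46.0 to 59.7) and 63.3 (56.2 to 71.1) CPM, and the G1/S cyclin Ccne1 at 11.2 (6.496 to 17.9), 24.0 (19.7 to 29.0) and 28.7 (24.0 to 34.1). Of the 20 erythroid markers, 9 reached 20 CPM with a median log2 ratio of -0.68 against bone marrow and -0.99 against spleen. Their summed ratio to bone marrow was 0.570, but 1.04 with cells of high doublet score removed. Among the 9 measured, 7 were lower in liver than in both, beside 30.7% of all genes, while Car2, a carbonic anhydrase, was at 499, 396 and 568 CPM.

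Genes known as regulators or surface markers of stem cells stood moderately higher in liver. Of 28 such genes measured among 34, 21 were higher in liver than in both tissues and 3 lower. Of all 7142 genes, 3573 were higher than in both and 2194 lower. The list had median log2 ratios of 0.39 against bone marrow and 0.44 against spleen, beside 0.05 and 0.13 for all genes. Among all genes, those spanning 50 to 200 kb had medians of 0.24 and 0.30, and those of 200 kb or more 0.38 and 0.47. The list was not tested against genes of like span. No gene of the list was past 2-fold against both. Mllt3, a chromatin reader that maintains human stem cells in culture, was at 393 (362 to 426) CPM in liver, 209 (195 to 223) in bone marrow and 217 (204 to 231) in spleen. Runx1, a founding transcription factor of blood, was at 891 (845 to 940), 572 (550 to 595) and 542 (520 to 564). Prdm16, a relative of Mecom, was at 104 (88.1 to 121), 58.1 (51.2 to 65.6) and 48.8 (42.6 to 55.7).

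Other members of this group were also highest in liver. The homeobox genes Meis1 (655, 489 and 457 CPM) and Nkx2-3 (65.6, 39.5 and 28.9), the ETS factors Erg (255, 167 and 174) and Fli1 (438, 275 and 284), and the surface gene Pdzk1ip1 (28.9, 11.9 and 15.2) were among them. Of the surface genes used to sort these cells, Kit was at 232 (209 to 258), 162 (150.2 to 174) and 198 (186 to 212) CPM, with liver ratios of 1.44 (1.26 to 1.63) to bone marrow and 1.17 (1.03 to 1.33) to spleen. In cells with no mitotic UMI its log2 ratio to spleen was -0.066, compared with 0.23. The others were nearer equal. Procr was at 20.3 (13.8 to 28.9), 22.2 (18.1 to 27.0) and 21.9 (17.8 to 26.6) CPM, with a liver ratio of 0.915 (0.591 to 1.38) to bone marrow, an interval that takes in equal levels. Ly6a was at 61.0, 70.4 and 51.2 CPM. Cd34, absent from the most primitive adult mouse stem cells, was at 234 (210 to 259), 275 (260 to 291) and 223 (209 to 237). The cytokine receptor Flt3, a marker of multipotent progenitors, was at 196, 179 and 169, and its liver interval of 175 to 220 overlapped both others.

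The stem cell list was sensitive to how cells were compared. Its summed ratio was 1.29 against bone marrow and 1.40 against spleen with depth matching, 1.18 and 1.29 without it, and 1.23 and 1.34 when cells were also matched on their share of cell cycle UMIs. In B-gated cells the same list, with 15 genes measured, had summed ratios of 1.06 and 1.37. Its median log2 ratios there were 0.097 and 0.050, and 5 of the 15 were higher in liver than in both tissues. The summed difference from spleen was thus nearly as large in another cell type, while the shift in the median was small there. The 2 gate genes moved in the same direction as the list: liver over bone marrow, Mecom was 1.62-fold and Hlf 1.49-fold. The gate fixes their presence, and these values are a description.

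Of 9 platelet and megakaryocyte genes measured, 8 were higher in liver than in both tissues, with median log2 ratios of 0.37 and 0.33. Vwf, the von Willebrand factor that marks platelet-biased adult stem cells, had 26 UMIs in 17 liver cells (17.1 CPM, 11.1 to 24.99), against 3.81 (2.22 to 6.11) in bone marrow and 7.95 in spleen. The liver level was 4.47-fold (2.34 to 8.78) that of bone marrow and 2.15-fold (1.24 to 3.65) that of spleen. Its interval lay above those of both other tissues. Its mean is under the 20 CPM minimum. Matched on cell cycle share as well, the log2 ratio of Vwf was 1.33 to bone marrow and 0.78 to spleen, compared with 2.16 and 1.10, and in cells with no mitotic UMI it was 1.19 and 0.27. Itga2b (CD41) was low in all 3, at 5.25, 5.38 and 5.74 CPM. Pf4, a platelet chemokine, had 33 of 39 liver UMIs in 1 cell. Tppp3, the gene whose CreER marked cells in the study, had 7 UMIs in 4 liver members (4.59 CPM, 1.85 to 9.46), against 2.02 (0.923 to 3.83) and 1.32 (0.486 to 2.88). The 3 intervals overlapped.

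Genes of the fetal stem cell programme were present in every tissue. Hmga2, a chromatin protein of self-renewing fetal cells, was at 546 (510 to 585) CPM in liver, 453 (433 to 473) in bone marrow and 406 (388 to 425) in spleen, and was seen in 94.5% of liver members. Lin28b, which blocks let-7 maturation, was at 77.4 (64.1 to 92.7), 53.8 (47.2 to 61.1) and 62.5 (55.4 to 70.2), and Igf2bp3, an RNA-binding partner in the same axis, at 140 (122 to 160), 133 (123 to 144) and 140 (129 to 151), with overlapping intervals. All 8 measured members lay higher in liver than in bone marrow and than in spleen, with medians of 0.25 and 0.33 and none past 2-fold. This count depended on the cells compared. Of 9 members measured in cells with no mitotic UMI, 4 were higher than in both tissues and 4 lower, with medians of -0.0071 and 0.036. Without depth matching 5 of 9 were higher and 2 lower. Hox genes and their homeobox cofactors had medians of 0.26 and 0.38 over 6 members, with Hoxa3 at 57.7, 36.6 and 32.7.

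Receptors and their targets gave small differences that mostly pointed one way. Of 19 cytokine and growth factor receptors, 17 were higher in liver than in both tissues, with medians of 0.36 and 0.41. Of all 7142 genes, 3573 were higher than in both. In B-gated cells the receptor list had medians of 0.087 and 0.44 over 17 members. All genes spanning 50 to 200 kb had medians of 0.24 and 0.30 in stem-gated cells, and those of 200 kb or more 0.38 and 0.47. The receptor list was not tested against genes of like span. Igf1r, the receptor of insulin-like growth factor 1, was at 380 (350 to 413) CPM against 234 (220 to 249) and 238 (224 to 252), and Notch2 at 87.2, 57.9 and 47.7. Interferon response genes had medians of 0.59 and 0.64 over 14 members, of which 12 were higher than in both. Among these, Oasl2 was past the fold at 52.5, 24.9 and 22.96 CPM, and Isg15, a ubiquitin-like modifier, was at 39.4, 20.6 and 18.1. Without depth matching, and also when cells were matched on cycle share, no member of the list was past the fold against both tissues. In B-gated cells the interferon list had medians of 0.49 and 0.33 over 10 members.

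Inhibitors and targets of TGF-beta signalling had medians of 0.28 and 0.71 over 7 members. Smad7, an inhibitory SMAD, was at 54.4, 33.9 and 30.5 CPM. Below the 20 CPM minimum, and picked after its values were seen, Id3, an inhibitor of bHLH factors, was at 26.2 (18.7 to 35.7) CPM in liver, 1.35 (0.494 to 2.93) in bone marrow and 3.75 (2.19 to 6.01) in spleen. It was present in 16 of 163 liver cells, with at most 5 UMIs in a cell, against 4 of 489 bone marrow cells and 6 of 489 spleen cells, of which 1 held 11 of the 17 UMIs. B-gated cells held more Id3, at 199, 214 and 121 CPM, without a liver excess over bone marrow.

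Immediate early genes, induced within minutes of a stimulus or of tissue handling, separated spleen from the other tissues. Fos was at 33.5 (24.9 to 43.98) CPM in liver, 29.2 (24.4 to 34.6) in bone marrow and 6.62 (4.47 to 9.45) in spleen. Jun was at 93.1 (78.5 to 110), 87.3 (78.8 to 96.4) and 50.1 (43.8 to 57.1). For both, the liver and bone marrow intervals overlapped and the spleen interval lay below them. The list's medians were 0.23 against bone marrow and 0.85 against spleen over 10 members. The list's summed ratio to bone marrow was 1.14 with depth matching and 0.921 without, so its direction there was not stable. The 11 genes of cholesterol synthesis and uptake had medians of 0.23 and 0.53. Of these, 10 were higher than in both, beside 3573 of all 7142 genes. That count depended on the cells compared. Matched on cycle share, 6 of 11 were higher than in both, with medians of 0.13 and 0.42. In cells with no mitotic UMI, 7 of 11 were higher, with medians of 0.045 and 0.57. The 7 members measured in B-gated cells had medians of -0.51 and -0.14.

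**Figure D4:**
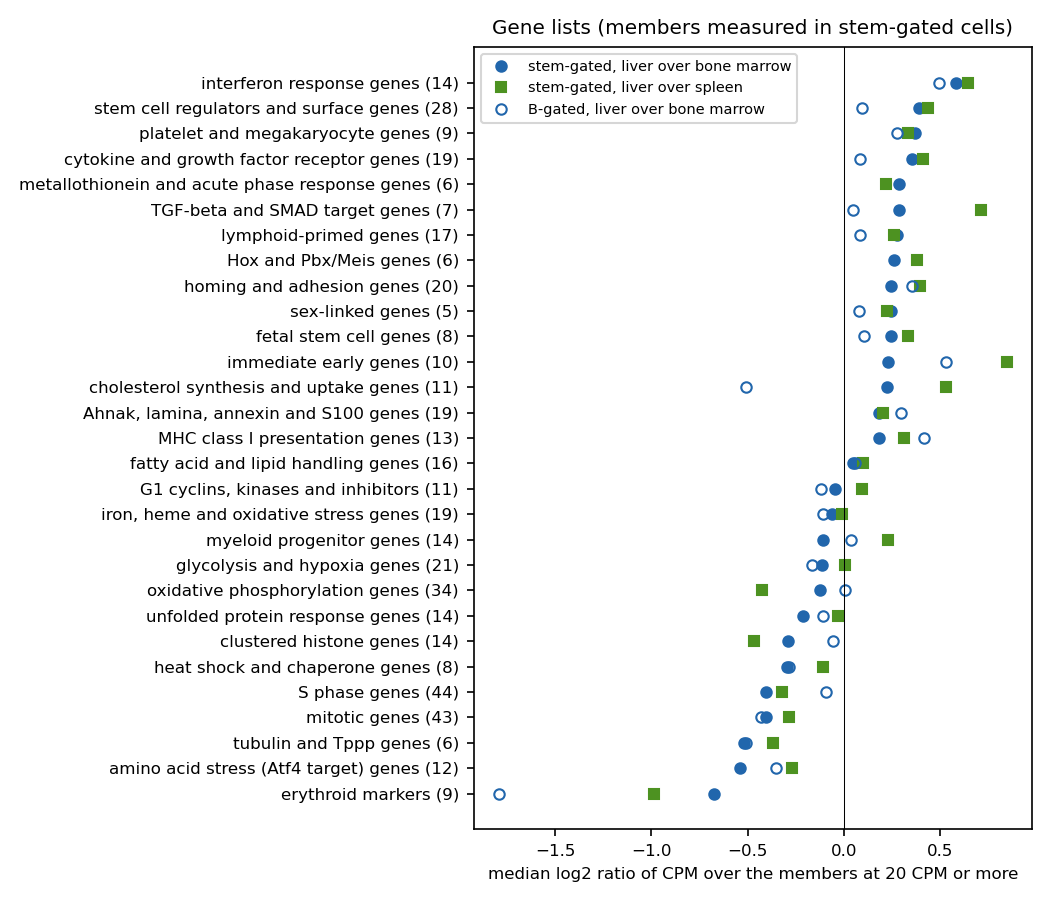
Median log2 ratio of CPM over the members of each gene list at 20 CPM or more (number of members in brackets) for liver over bone marrow (circles) and over spleen (squares) in stem-gated cells, and for liver over bone marrow in B-gated cells (open circles). Against bone marrow the interferon list lies highest, at 0.59, and the erythroid list lowest, at -0.68. Against spleen the immediate early list lies highest, at 0.85. Lists with fewer than 5 members and the class II list are left out.

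Cell cycle genes were lower in liver once depth was matched. Of 44 S phase genes, 40 were lower in liver than in both tissues, beside 30.7% of all genes. The list had medians of -0.40 and -0.32 and summed ratios of 0.755 (0.734 to 0.776) and 0.811 (0.789 to 0.834). Dut, which keeps uracil out of DNA, was at 312 (284 to 341) CPM in liver, 450 (430 to 470) in bone marrow and 400 (382 to 419) in spleen. Of 43 mitotic genes measured, 37 were lower than in both, with medians of -0.40 and -0.28. Top2a, the topoisomerase that untangles chromosomes, was at 534 (498 to 572), 738 (713 to 764) and 686 (662 to 711), whereas Mki67, the proliferation antigen, was nearer at 441, 521 and 477. The linker histone gene Hist1h1b was at 1012, 1985 and 1424 CPM. Over 14 clustered histone genes the summed ratios were 0.754 and 0.733. In cells with no mitotic UMI these histone ratios were reversed, at 1.38 and 1.22, with 7 of 9 measured members higher than in both. The S phase list was not reversed there. Of its 36 members measured, 35 were lower than in both, with summed ratios of 0.541 and 0.627. Median depths of these cells were 6328, 5552 and 6130 UMIs. Among G1 regulators in the depth-matched cells, the D cyclin Ccnd1 was at 72.2, 130 and 117 CPM, and Myc at 34.8, 53.2 and 72.2. In B-gated cells the mitotic list had summed ratios of 0.780 and 1.24, compared with 0.793 and 0.785 in stem-gated cells. The lower mitotic level against bone marrow, but not against spleen, was thus also present outside the stem gate. The S phase list stood at 0.928 and 1.19 in B-gated cells.

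Per cell thinned to 5000 UMIs, the median was 11 UMIs of the mitotic list in liver, 29 in bone marrow and 25 in spleen, and 14, 28 and 24 UMIs of the S phase list. Liver values spread widely, with quartiles of 5 and 46 for the mitotic list, and 52.3% of liver members held 10 or more, against 75.8% and 72.0%. A UMI of Mki67, Top2a, Ccnb1, Ube2c, Cenpf or Plk1 was seen in 95 of 149 liver members (63.8%, 55.5 to 71.5%), 82.2% (79.7 to 84.6%) in bone marrow and 79.2% (76.7 to 81.6%) in spleen.

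This difference depended on depth. At 3000 UMIs the shares were 57.4% (49.4 to 65.1%), 62.0% (59.4 to 64.6%) and 61.9% (59.4 to 64.4%), and without thinning 66.9%, 66.9% and 71.4%. Stem-gated cells without such a UMI were shallower in bone marrow (median 4417 UMIs) and spleen (4779) than in liver (6328). A minimum of 5000 UMIs therefore leaves out a larger share of them in bone marrow and spleen. With or without such a UMI, it left out 463 of 1443 bone marrow and 395 of 1522 spleen members, against 14 of 163 in liver. Over all stem-gated cells with no depth matching, the summed ratios were 0.812 and 0.863 for S phase genes and 0.969 and 0.942 for mitotic genes. When cells were ranked into 3 classes by their share of cycle UMIs, the lowest class held 42.3% (34.6 to 50.3%) of liver members, 33.0% (30.6 to 35.5%) of bone marrow and 32.7% (30.4 to 35.1%) of spleen.

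**Figure D5:**
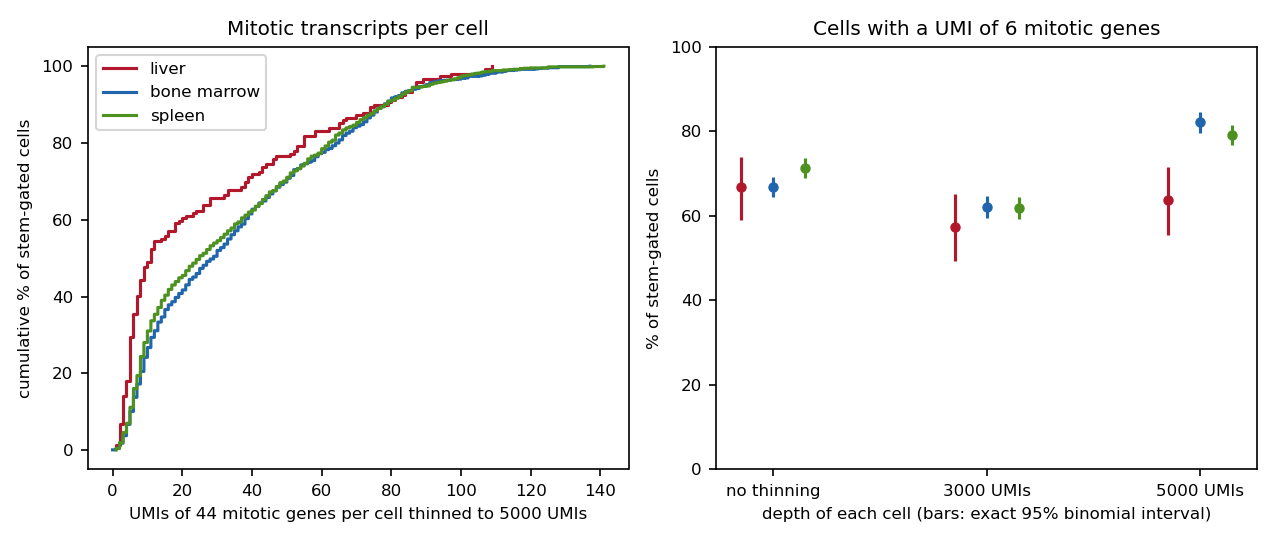
Left, cumulative share of stem-gated cells by their UMIs of 44 mitotic genes after thinning to 5000 UMIs, where the liver curve lies left of the others at low counts. Right, share of stem-gated cells with a UMI of 6 mitotic genes at each depth, with exact binomial intervals, which separate liver from the other tissues at 5000 UMIs only.

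Liver members differed among themselves along the same axis. In the lowest class of cycle share, Mllt3 was at 624 (555 to 699) CPM in liver, 489 (448 to 532) in bone marrow and 387 (353 to 424) in spleen, and in the highest class at 277 (237 to 321), 155 (137 to 174) and 168 (150 to 187). Liver lay above both tissues in each of these classes. Ahnak was at 131 (101 to 168), 70.3 (55.6 to 87.8) and 74.7 (60.2 to 91.6) in the lowest class, and at 20.3 (10.8 to 34.8), 13.2 (8.47 to 19.7) and 11.1 (6.88 to 17.0) in the highest, where the intervals overlapped. Trpc6 was at 131 (101 to 168) CPM in liver in the lowest class, 73.0 (58.0 to 90.8) in bone marrow and 68.2 (54.4 to 84.5) in spleen. In the highest class it was at 68.8 (49.98 to 92.3), 13.8 (8.91 to 20.3) and 10.6 (6.47 to 16.3).

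Slfn2 in the lowest class was at 102 (75.4 to 135) CPM in liver, 40.6 (29.6 to 54.3) in bone marrow and 26.0 (17.8 to 36.7) in spleen, while its intervals overlapped in the highest. Fos did not follow: in the lowest class liver was at 60.3 (40.4 to 86.6), bone marrow at 92.0 (74.99 to 112) and spleen at 13.8 (8.04 to 22.1). Depth was still uneven in that class, at medians of 6566, 5136 and 5645 UMIs. Matched on cycle share in this way, 18 genes were at least 2-fold higher in liver than in both tissues, 17 of them among the 32.

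Metabolic lists were mostly lower or level. Of 34 genes of oxidative phosphorylation, 24 were lower in liver than in both tissues, beside 30.7% of all genes. The list's medians were -0.12 and -0.42, and that of bone marrow over spleen was -0.29. In cells with no mitotic UMI the liver medians were -0.0048 and -0.38, with 14 of 34 lower than in both. Cox6c, a subunit of cytochrome c oxidase, was at 455, 416 and 714 CPM and so separated spleen. Of 12 targets of Atf4, the factor of the amino acid stress response, 9 were lower than in both, with medians of -0.54 and -0.27, among them the serine synthesis enzyme Phgdh at 232 (208 to 257), 328 (311 to 345) and 241 (227 to 256). All 6 tubulin genes measured were lower than in both, Tubb5 at 659, 902 and 790 CPM. The 21 glycolysis and hypoxia genes had medians of -0.11 and 0.01.

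Transcripts of other liver cells were rare in the members. Albumin (Alb), the main secreted protein of hepatocytes, had 10 UMIs in 7 liver members and none in the other tissues, which is 9.75 times the level of 3 counts in bone marrow, with an exact lower limit of 6.55 for the ratio itself. Transthyretin (Ttr) had 6 UMIs. The 27 hepatocyte markers summed to 325 (297 to 355) CPM in liver, 224 (211 to 239) in bone marrow and 264 (249 to 279) in spleen, mostly Apoe and metallothioneins, and 7 of them, Apob among them, were at 0 in liver. The 17 monocyte and macrophage markers summed to 241, 112 and 103 CPM, with 367 UMIs in liver. Of these markers' macrophage genes C1qa, C1qb, C1qc, Adgre1, Vsig4 and Cd5l, 1 liver cell held 57 of the 61 UMIs. With cells rich in class II, Gzma or Pf4 left out, the 17 markers still came to 225, 113 and 97.2 CPM. The 14 T, NK and innate lymphoid markers summed to 204, 62.8 and 95.4 CPM, with Cd3e, Cd3d, Tcf7 and Icos at 0 in liver. With cells rich in class II, Gzma or Pf4 left out, they came to 88.8, 63.8 and 85.2 CPM.

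The 20 endothelial markers summed to 446, 409 and 362 CPM, with Kdr, Stab2 and Lyve1 among 7 at 0 in liver. Of the 10 neutrophil markers, 5 were at 0 in liver and the rest summed to 50 UMIs (32.8, 6.73 and 23.2 CPM). In spleen 1 cell held 74 of the 89 UMIs of S100a8, S100a9 and Stfa1, and with cells rich in class II, Gzma or Pf4 left out the list came to 32.9, 6.66 and 5.63 CPM. A UMI of these 3 genes was present in 22.7% of liver members, 3.68% in bone marrow and 3.07% in spleen. In B-gated cells of the same libraries the 10 neutrophil markers summed to 47.5, 8.45 and 5.38 CPM, so the liver excess was also present outside the stem gate. The 8 mast cell and basophil markers summed, mostly through Kit, to 247, 167 and 204 CPM. With the cells rich in class II, Gzma or Pf4 left out of each library, 29 genes were at least 2-fold higher than in both tissues, 25 of them among the 32, and the stem cell list kept summed ratios of 1.31 and 1.41.

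The ratios also followed gene length. Genes spanning less than 10 kb had a median log2 ratio of -0.15 against bone marrow and -0.07 against spleen, those of 10 to 50 kb -0.03 and 0.06, those of 50 to 200 kb 0.24 and 0.30, and those of 200 kb or more 0.38 and 0.47. B-gated cells gave -0.15, -0.04, 0.22 and 0.37 against bone marrow over the same classes, so the trend ran through the liver library and not only its stem-gated cells. The 32 genes higher than both had a median span of 157 kb against 29.0 kb for all 7142 genes, and 14 of them spanned 200 kb or more. Malat1, a nuclear RNA, had median levels of 6102, 4303 and 4998 CPM per cell, and the median mitochondrial share was 2.71%, 2.36% and 2.49%. Whether intronic reads were counted is not given in the sources used here, and the part of gene length in these ratios was not tested beyond centring. With ratios centred within classes of span, 18 genes were past 2-fold above both tissues, 14 of them among the 32, and the log2 ratios of Trpc6 were 2.05 and 1.17, of Mllt3 0.52 and 0.38.

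Of the 32 genes, 23 reached 20 CPM in B-gated cells, where 10 were higher in liver than in both tissues and 1 was past 2-fold against both. Trpc6 had 0 CPM in liver and bone marrow B-gated cells and 0.896 in spleen, and Rora 0.440, 1.11 and 0.448. Slfn2 was at 116, 39.3 and 205 CPM there and Abcg3 at 24.6, 8.89 and 25.5, above bone marrow but not above spleen. For the 6 lower genes the direction was the same in B-gated cells for all 6, and 4 were past 2-fold.

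Beside the libraries of other batches, many of the 32 genes did not stand out in liver. Of the 32, 10 were higher in P2 liver than in all 3 of the E19 library and the 2 tubes, and 5 of these by 2-fold or more. Trpc6 was at 80.0 CPM in P2 liver, 107 in E19 and 137 and 131 in the tubes. Mllt3 was at 393, 435, 729 and 748, Rora at 70.8, 149, 120 and 131, and Plcl1 at 133, 137, 161 and 143. Ahnak was at 55.8 in P2 liver, 7.88 in E19 and 163 and 181 in the tubes. Hba-a1 stood at 5.90, 132, 4.41 and 17.0. The E19 cells were matched to liver in depth (median 8147 UMIs), the tube cells were deeper (11237 and 14288), and batch, age, tissue and genotype differ together among these libraries.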

How the data were processed

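Single-cell RNA was captured with 10x 3′ chemistry, per the labels' protocols. The deposited files hold raw UMI counts of 32285 genes per barcode, made with Cell Ranger 7.0.0 for the 3 P2 tissues, 7.1.0 for E19 and 8.0.1 for the tubes per the file headers. Genome build mm10 and version 7.0.0 are what the submitters' processing notes give for every sample. The 2 hashtag samples were not used here. Gene coordinates and spans are those of GENCODE vM21 (GRCm38), matched by Ensembl identifier.

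Barcodes were filtered, gated and matched in total UMIs as the report states (numpy 2.4.6, scipy 1.17.1, seed 1). CPM carry exact Poisson intervals, shares exact binomial intervals and ratios exact conditional binomial intervals at 95%. A gene absent from 1 side was set against 3 counts over that side's cells. B-gated cells (Cd79a at 3 UMIs or more, Mecom, Hlf, Elane and Mcpt8 at 0) were matched in depth to the 714 of bone marrow, 1 to 1. Doublet scores came from Scrublet in scanpy 1.11.5, and the highest 0.8% of barcodes per 1000 barcodes were marked. The main results keep marked cells. The code was tested on simulated counts.

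Named genes are the 15 highest-ranked on each side that were 2-fold or more from both tissues (ranked by the smaller log2 ratio), up to 6 members of each of 41 lists by mean level, and a fixed set of anchors. Where other members are named, they were chosen after their values were seen. Members, lists and anchors were chosen with earlier results of these data known, so no count is independent support. Some genes that the rule selects are not reported here. Mx1 and Sdpr were not matched in the gene table.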

Additional observations from a re-analysis of the deposited data

How the results depend on the processing

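No paired analysis was possible because each tissue has 1 library, and no replicate could be left out. Each count of genes past the fold stood beside a main count of 67 higher and 12 lower against bone marrow, 87 and 19 against spleen, 32 and 6 against both, and 3 and 29 for bone marrow against spleen. In that order, with values given where a count moved by over 1.5 times, all stem-gated cells with no depth matching gave 22 and 5, then 39 and 9, then 11 higher. The 1 nearest cell gave 107 higher against bone marrow and 23 higher for bone marrow against spleen. Thinning to 5000 UMIs gave 36, 31 and 19 lower, and 19 lower for bone marrow against spleen. With doublets removed 3 genes were lower than both and 1 was higher in bone marrow than in spleen. In cells with no mitotic UMI the counts were 253 and 171, 303 and 124, 93 and 94, and 44 and 48. With 10 more genes required at 0, which left few liver cells, they were 559 and 422, 802 and 312, 298 and 258, and 217 and 109. Matching on cycle share gave 40 and 6 against bone marrow and 18 higher than both. A total without ribosomal, mitochondrial, haemoglobin and hepatocyte genes gave 39 lower against spleen and 15 lower than both. Centring on the median ratio gave 50 and 36 against spleen, 20 higher than both and 1 higher in bone marrow than in spleen. Centring within classes of gene span gave 44 and 43 higher, 18 higher than both and 1 higher in bone marrow than in spleen. The mean CPM per cell gave 22 lower against bone marrow and 5 higher in bone marrow than in spleen. A minimum of 50 CPM gave 19 and 4, 22 and 9, 10 and 2, and 0 higher in bone marrow than in spleen. A minimum of 10 CPM gave 184 and 29, 208 and 45, 90 and 26, and 8. A 1.5-fold threshold gave 510 and 224, 726 and 184, 338 and 70, and 45 and 100.

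The gated share was 2.76% in liver and 12.7% in spleen at 3000 UMIs, and 2.89%, 22.0% and 16.8% without thinning. The mitotic share was 62.0% in bone marrow and 61.9% in spleen at 3000 UMIs, and 66.9% and 71.4% without thinning. Among the named genes past the fold, log2 ratios that changed sign against spleen were H2-Eb1 at -0.0167 and Cd74 at -0.16 with doublets removed, and -0.16 and -0.072 with cells rich in marker genes left out. Alad was at 0.14 against bone marrow in cells with no mitotic UMI. With 10 more genes at 0, Alad was at 0.27 against spleen, Hba-a1 at 0.26, Sox6 at 0.58 and Hba-a2 at 1.58 against bone marrow. Some genes under 2-fold also changed sign. In cells with no mitotic UMI these included Kit at -0.066, Cd34 at -0.069, Lin28b at -0.215 and Igf2bp3 at -0.34 against spleen, and Fos at -0.17, Jun at -0.33 and Flt3 at -0.066 against bone marrow. For these the cause was not tested. Leaving out marker-rich cells, matching on cycle share and centring by gene span were chosen after seeing the data. The small number of liver members limits every low-level gene, and 1 library per tissue leaves the spread between animals unknown.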
